A study of Mus musculus with 6 samples.

Results

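To see how much of the monocyte and macrophage program AE9a leukemia cells carry, and whether it differs between bone marrow regions, 9 genes were followed by name in the count table: Lyz1, Lyz2, Cd14, Cd68, Fcgr3, Ly6c2, Ccr2, Cx3cr1 and Irf8. They are 9 of the 54532 genes counted. Of them 8 had at least 1 count, 7 passed the filter on low counts and were tested, and Lyz1 and Cx3cr1 did not pass. The cells came from C57BL/6 mice with leukemia driven by AML1-ETO9a (AE9a), a splice form of the RUNX1-RUNX1T1 fusion. It was delivered with GFP by retrovirus into c-Kit+ progenitors, and the libraries hold leukemia cells from mice of the third generation of transplantation, kept in culture medium before and after a sort. Central bone marrow (CBM, 3 libraries) was flushed from femurs and tibias, and endosteal bone marrow (EBM, 3 libraries) was then released from the same bones with collagenase I. No library came from healthy marrow, all 6 carry AE9a, and the EBM cells alone went through the digestion, so region and digestion cannot be told apart. The gate of the sort, the number of mice in a library and their age at sampling are not given in the sources used here, nor is it stated which libraries share a mouse.

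Monocytes arise from granulocyte-monocyte progenitors under the transcription factors PU.1 (Spi1) and IRF8, and macrophages form from monocytes or are seeded before birth. Classical mouse monocytes display Ly6C and the chemokine receptor CCR2, through which they leave the marrow, while patrolling monocytes display CX3CR1. Both make lysozyme and carry CD14, a co-receptor for bacterial lipopolysaccharide, the lysosomal protein CD68 and Fc receptors for IgG. Several of these genes are not private to monocytes. Neutrophils and their precursors make lysozyme and some Ly6C, and Fcgr3 is carried by mast cells, natural killer cells and myeloid progenitors as well.

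Mice have a pair of lysozyme genes side by side on chromosome 10 of GRCm38, both on the minus strand. Lyz2, at 117277331-117282321, is the form of myeloid cells, and Lyz1, at 117287797-117292868, is the form of the Paneth cells of the gut. Because reads from near copies can be assigned to the wrong gene, the coding sequences of GENCODE M21 were compared. They have 444 coding bases each, stop codon left out, and differ at 22 of them (95.0% identity). The stretch of coding bases 61 to 120, counted from the start codon, holds the most differences, 9 in 60 bases, which are in capitals.

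Lyz1: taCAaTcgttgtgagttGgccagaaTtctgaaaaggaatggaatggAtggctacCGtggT
Lyz2: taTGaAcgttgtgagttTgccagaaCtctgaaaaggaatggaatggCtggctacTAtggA

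The longest run shared by the complete transcripts is 118 bases, and none (0) of the 1114 windows of 150 bases of the Lyz1 transcript occurs in Lyz2. Ly6c2 (chromosome 15, 75108158-75111970, minus strand) has a closer copy, Ly6c1. Their coding sequences of 393 bases differ at 9 (97.7% identity), and 39 of 695 windows of 150 bases of the Ly6c1 transcript of the same coding length are found whole in Ly6c2, so some reads of this pair cannot be placed.

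The starts of the lysozyme genes were compared too, since the copies differed in their counts and AE9a keeps the DNA-binding domain of RUNX1. The 250 bases before each start are shown from RefSeq for GRCm38.p6, 5′ to 3′ on the minus strand, at chr10:117292869-117293118 for Lyz1 and chr10:117282273-117282522 for Lyz2. Capitals mark the RUNX core TGTGGT and the C/EBP pattern TTGCNNAA, each searched on both strands together with the PU.1 core GAGGAA.

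Lyz1: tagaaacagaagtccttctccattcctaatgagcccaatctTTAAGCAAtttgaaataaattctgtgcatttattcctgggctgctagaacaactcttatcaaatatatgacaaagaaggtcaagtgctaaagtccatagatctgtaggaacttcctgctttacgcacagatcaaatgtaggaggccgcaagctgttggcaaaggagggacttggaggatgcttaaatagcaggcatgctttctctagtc
Lyz2: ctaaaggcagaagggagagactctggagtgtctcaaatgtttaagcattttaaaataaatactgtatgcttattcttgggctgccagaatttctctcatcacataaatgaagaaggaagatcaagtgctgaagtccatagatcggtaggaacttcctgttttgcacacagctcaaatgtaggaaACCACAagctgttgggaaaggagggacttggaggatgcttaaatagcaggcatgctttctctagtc

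The matches differ between the copies. The Lyz2 window holds 1 RUNX core and the Lyz1 window holds 1 C/EBP pattern. In the other members with an entry, the RUNX core was found in the windows of Ly6c2 and Cx3cr1. The PU.1 core was in those of Fcgr3, Cd68 and Ly6c2, and the C/EBP pattern in those of Fcgr3 and Cd68. RefSeq starts can differ from the gene models counted here. The windows of Fcgr3 and Cx3cr1 lie inside those models, the Ccr2 window lies mostly inside its own, and the Lyz2 window runs into its own. Of all 32851 windows of this length 4614 (14%) hold the RUNX core, 7639 (23.3%) the PU.1 core and 3142 (9.6%) the C/EBP pattern. These are matches of letters, not sites of binding.

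Libraries held between 16436526 and 19462964 counts, and 3 counts, the limit that a count of 0 allows, correspond to between 0.149 and 0.193 CPM (counts scaled to the library size with TMM factors), a limit for counting error only. Libraries differed along an axis that does not follow the regions. The first principal component, with 53.0% of the variance of log2 CPM, put CBM replicate 1 (38.5), EBM replicate 1 (36.4) and EBM replicate 2 (19.8) opposite to CBM replicate 2 (-42.9) and EBM replicate 3 (-46.0), with CBM replicate 3 (-5.8) between them.

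Per length, several markers of progenitors and of the erythroid lineage were well above most members, though not above all. Averaged over the 6 libraries, Car1, the carbonic anhydrase of early red cells, stood at 2237 CPM per kb of gene length, Gata2, a stem and progenitor factor, at 171, and Kit, the stem cell factor receptor, at 24.7. The progenitor markers Cd34 (1.13) and Flt3 (0.0466) were as low as Ly6c2 and Cx3cr1. The members spread widely, at 35.7 CPM per kb for Fcgr3, 5.63 for Lyz2, 3.48 for Cd68, 2.10 for Ccr2, 1.04 for Ly6c2, 0.692 for Cd14, 0.117 for Irf8 and 0.0350 for Cx3cr1, with Lyz1 at 0. Neighbours from Lyz2 to Cd14 were not separated in every library, since Lyz2 lay between 0.605 and 14.1 CPM per kb and Cd68 between 2.76 and 4.93. Of the other monocyte and macrophage genes, Csf1r (the M-CSF receptor, 0.0925 CPM per kb), Adgre1 (F4/80, 0.0608) and Itgam (CD11b, 0.0896) were near the level of Irf8. They had at most 21, 11 and 20 counts in a library. Spi1, which is also used by progenitors, was at 33.7 CPM per kb, near Fcgr3. The mean of S100a9, from the neutrophil list, was also near it (40.4 CPM per kb), with libraries from 1.43 to 114.

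**Figure D1:**
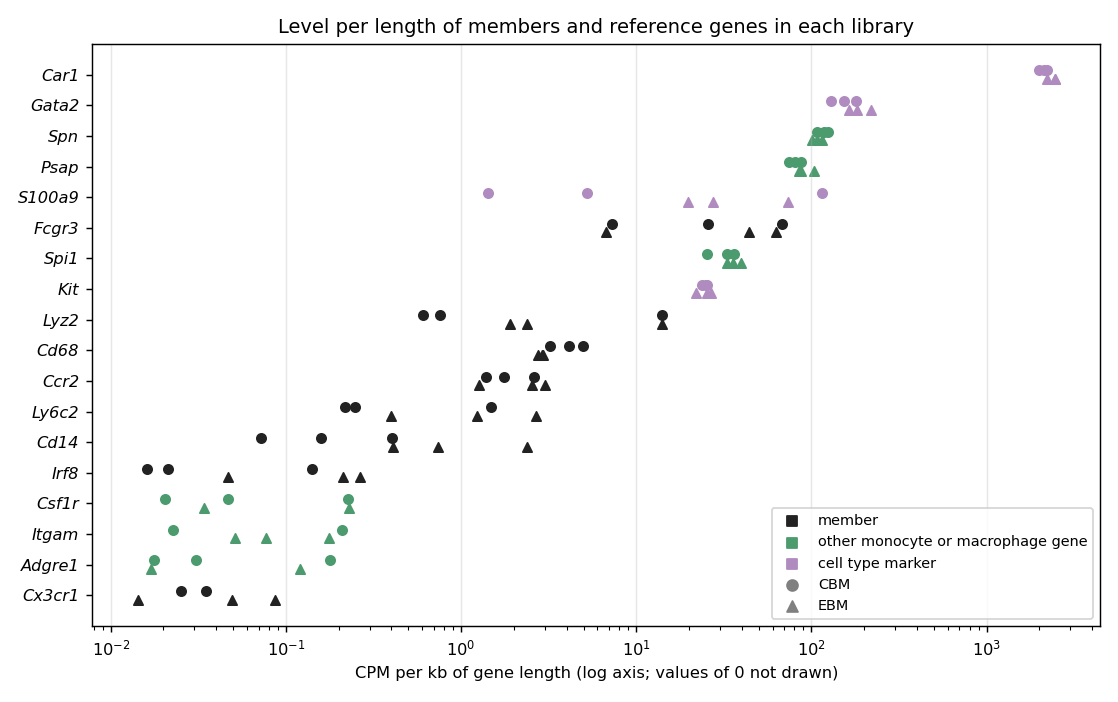
CPM per kb of gene length (log axis) of 8 members (black), 6 other monocyte and macrophage genes (green) and 4 cell type markers (purple), with 1 point per library (circles CBM, triangles EBM) and genes ordered by their mean. Fcgr3 lies beside S100a9, Spi1 and Kit. Irf8 and Cx3cr1 lie beside Csf1r, Itgam and Adgre1, all below 0.3 CPM per kb. Lyz1 had no count and is not drawn.

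Fcgr3, the low-affinity activating IgG receptor, was the member with the most counts. CBM replicates 1, 2 and 3 had 118, 12.6 and 44.5 CPM, against 109, 76.2 and 11.6 CPM for EBM replicates 1, 2 and 3. CBM replicate 1 was the highest library and EBM replicate 3 the lowest, 10.2-fold apart, so that the regions overlapped over nearly their whole range. Means were 58.5 ± 54.2 CPM for CBM against 65.6 ± 49.6 CPM for EBM (SD over n = 3). EBM over CBM, the log2 fold change was 0.17 ± 0.94 (± its standard error throughout; adjusted p = 0.989, edgeR's quasi-likelihood test). It turned to -0.31 without CBM replicate 2 and to -0.41 without EBM replicate 1. From the highest to the lowest, the order of Fcgr3 over the libraries was that of the first principal component, to which the gene contributes. Its spread over the 6 libraries was larger than that of 98.9% of the genes tested.

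The gene lies on chromosome 1 of GRCm38 (171051174-171064935, minus strand), where Mir6546, with 0 counts, is the single annotated gene that overlaps it. Genes with a profile like that of Fcgr3, looked up after its values were seen, were Vim, an intermediate filament protein, Nek6, a mitotic kinase, and Rasgrp4, a Ras activator of mast cells and myeloid progenitors. Their log2 CPM, each centred on its own mean, differed from that of Fcgr3 by a root mean square of 0.07, 0.12 and 0.12 over the 6 libraries. In replicate order Vim had 625, 71.1 and 246 CPM for CBM, against 627, 465 and 61.7 CPM for EBM. Of the progenitor markers, Cd34 had its 3 highest levels in the same libraries as Fcgr3. These were 10.5 to 16.4 CPM, against 1.16 to 4.86 CPM in the other 3. Kit did as well, over a narrow range (196 to 239 CPM). So did the partner genes of the fusion, listed with these markers. They were Runx1 (506 to 722 CPM, against 330 to 482 CPM) and Runx1t1 (26.5 to 41.0 CPM, against 20.5 to 23.9 CPM). How many of their counts came from the AE9a transgene was not tested. Gata2 (1174 CPM), Myb, Msi2 and Flt3 were instead highest in EBM replicate 3, the lowest library of Fcgr3. Myb (268 to 352 CPM) and Msi2 (113 to 131 CPM) varied little. The inhibitory receptor Fcgr2b, of the same family, ranged from 29.1 to 66.7 CPM and also had its 3 highest levels in CBM replicate 1 and EBM replicates 1 and 2. For Fcgr4, the receptor of patrolling monocytes, the counts were at most 16. Fcer1g, the signalling chain that activating Fc receptors need at the surface, had at most 31 counts and 1.87 CPM per kb in a library, below the lowest Fcgr3 level of 6.70 CPM per kb.

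Ccr2, the receptor for CCL2, showed the same order in part, over a narrower range. CBM replicates 1, 2 and 3 had 17.5, 9.42 and 11.9 CPM, against 17.3, 20.5 and 8.61 CPM for EBM replicates 1, 2 and 3. EBM replicate 3 and CBM replicate 2 were again the lowest libraries, and the regions overlapped. Its log2 fold change of 0.26 ± 0.36 did not pass the test (adjusted p = 0.950, edgeR), and it was -0.00043 without EBM replicate 2. The ligands Ccl2, Ccl7 and Ccl12 had at most 2, 1 and 1 counts in any library. Ccr2 is on the plus strand of chromosome 9 (124101950-124113557) and overlaps no annotated gene.

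**Figure D2:**
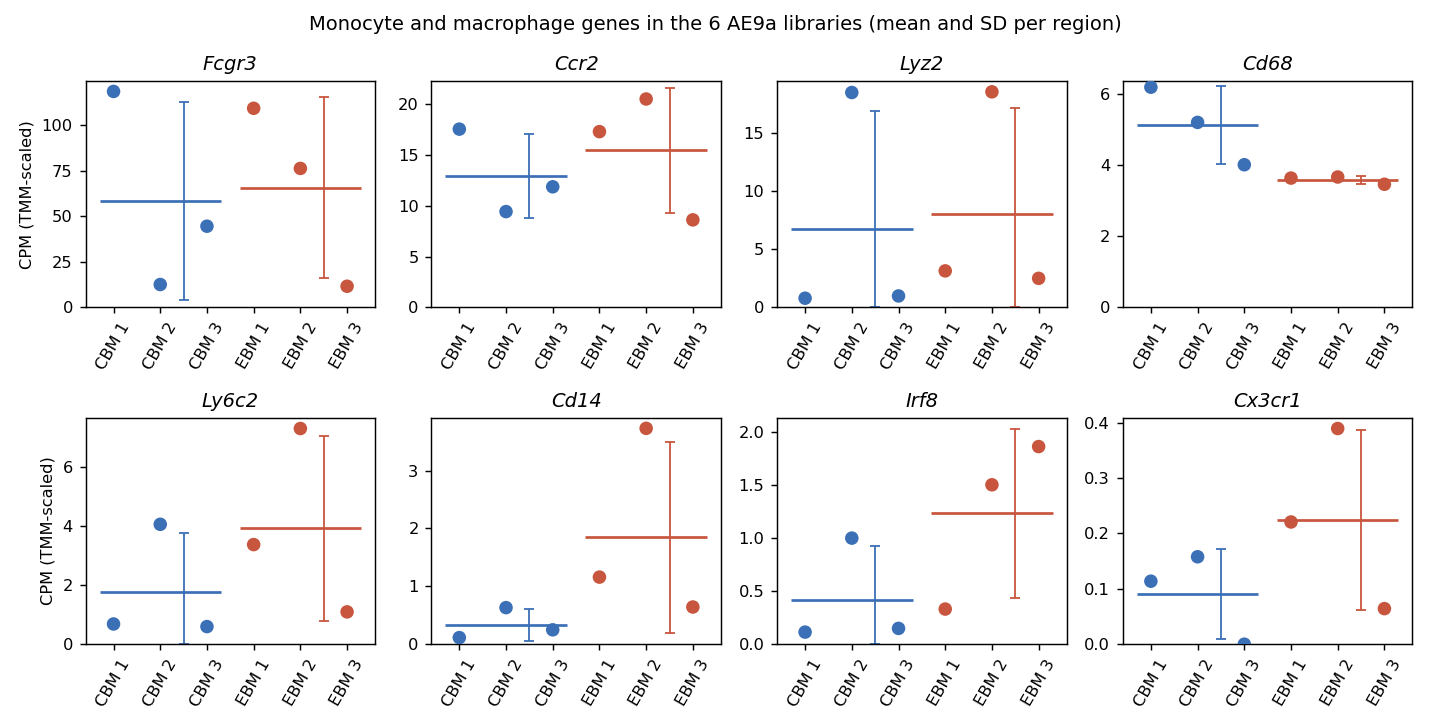
TMM-scaled CPM (linear axis from 0, with its own scale in each panel) of the 8 members with counts in CBM replicates 1 to 3 (blue) and EBM replicates 1 to 3 (red), with lines for the mean and bars for the SD, cut at 0, of n = 3 libraries. Fcgr3 and Ccr2 are lowest in CBM 2 and EBM 3, Lyz2 is highest in CBM 2 and EBM 2, and Cd68 is the one gene with every EBM point below every CBM point.

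Lyz2 followed another order. It was counted 14, 351 and 20 times in CBM replicates 1, 2 and 3 (0.797, 18.5 and 0.992 CPM). EBM replicates 1, 2 and 3 had 57, 333 and 39 counts (3.15, 18.5 and 2.51 CPM). The libraries numbered 2 stood far above the other 4 in both regions, and the highest exceeded the lowest 23.3-fold. Means were 6.76 ± 10.2 CPM for CBM against 8.06 ± 9.08 CPM for EBM (SD over n = 3), so the SD was larger than the mean in both. The regions differed by a log2 fold change of 0.26 ± 1.30 (adjusted p = 0.989, edgeR). Single libraries set its direction, since it was -0.26 without CBM replicate 1, -0.25 without CBM replicate 3, -1.25 without EBM replicate 2 and 3.16 without CBM replicate 2. With both libraries numbered 2 left out, a choice made after seeing the data, it was 1.64 (adjusted p = 0.825, edgeR). Lyz1, with 0 counts in every library, stayed below the limit of 0.193 CPM that a count of 0 allows, and adding its counts to those of Lyz2 changed nothing.

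Ly6c2, which encodes the Ly6C antigen of classical monocytes, was also highest in the libraries numbered 2. CBM replicates 1, 2 and 3 had 0.683, 4.05 and 0.595 CPM, against 3.37, 7.29 and 1.09 CPM for EBM replicates 1, 2 and 3. EBM replicates 1 and 3 lay below CBM replicate 2, so the regions overlapped. A log2 fold change of 1.14 ± 0.91 (adjusted p = 0.853, edgeR) was obtained, which became 0.34 without EBM replicate 2 and 2.61 without CBM replicate 2. Ly6c1, its near copy, had 2 counts in all, both in EBM replicate 2, and with both genes summed the log2 fold change was 1.15.

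The summed markers of neutrophils were also highest in the libraries numbered 2. All 14 genes of the neutrophil list had counts, none of them was at 0 over the libraries, and they summed to 11.5, 262 and 10.5 CPM in CBM replicates 1, 2 and 3, against 94.5, 232 and 48.6 CPM for EBM replicates 1, 2 and 3. S100a9, a calcium-binding protein of neutrophils and monocytes, was between 0.744 and 59.8 CPM in CBM and between 10.3 and 38.6 CPM in EBM, and its partner S100a8 between 0.595 and 57.1 and between 8.35 and 40.4 CPM. Of the primary granule genes, Mpo (myeloperoxidase), Elane and Ctsg were higher in EBM replicate 1 than in CBM replicate 2. They had 21.2, 10.5 and 6.24 CPM in the former, against 14.9, 7.90 and 3.58 CPM in the latter. Prtn3 did not share this (6.51 and 6.58 CPM). Lyz2 was 3.15 CPM in EBM replicate 1 and 18.5 CPM in CBM replicate 2. Genes nearest to the profile of Lyz2, again looked up after its values were seen, were the granule genes Ltf (lactoferrin) and Ngp, with root mean square differences of 0.60 each on the log2 scale, followed by Igha, an antibody heavy chain of plasma cells, at 0.78. Csf1r, Adgre1 and Itgam did not exceed 1.11 CPM in any library, and their highest levels were likewise in the libraries numbered 2. The part of other cells in the Lyz2 and Ly6c2 counts was not tested, and in bulk libraries fewer cells of a type and less RNA per cell cannot be told apart.

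**Figure D3:**
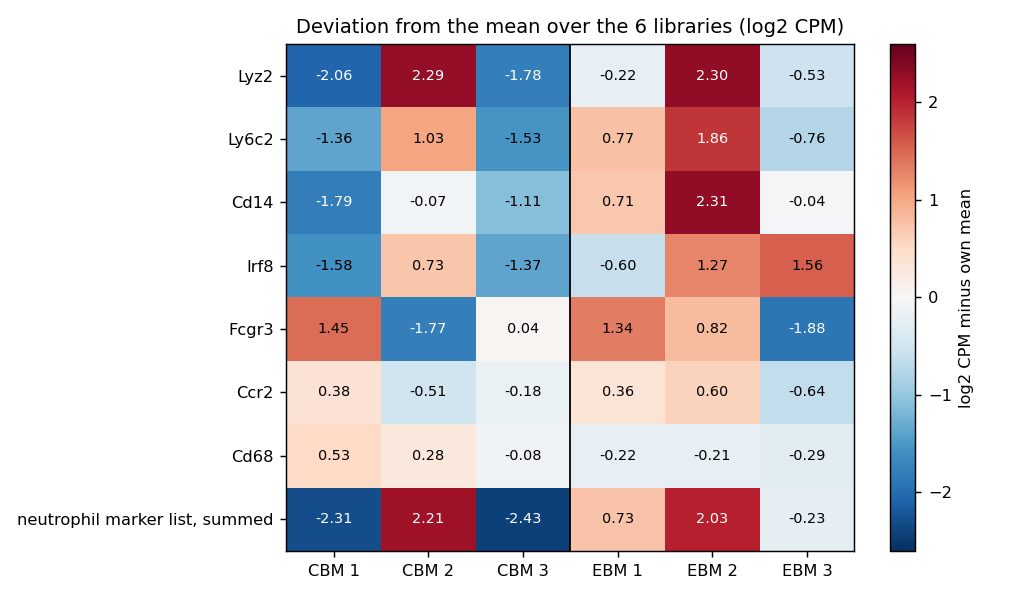
log2 CPM of the 7 tested members, and of the summed neutrophil marker list, minus the mean of each over the 6 libraries (columns), from blue (below the mean) to red (above). Lyz2 and the neutrophil list deviate alike in most libraries, by 2.29 and 2.21 in CBM 2 and by -2.06 and -2.31 in CBM 1, while Fcgr3 is at -1.77 in CBM 2.

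Cd14 was the member with the largest fold change, at a low level. CBM replicates 1, 2 and 3 had 2, 12 and 5 counts (0.114, 0.632 and 0.248 CPM), against 21, 67 and 10 counts (1.16, 3.73 and 0.643 CPM) for EBM replicates 1, 2 and 3. Within each region the library numbered 2 was the highest, as for Lyz2 and Ly6c2. Means were 0.331 ± 0.269 CPM for CBM against 1.84 ± 1.65 CPM for EBM (SD over n = 3). After TMM scaling all EBM libraries were above all CBM libraries, by a margin between EBM replicate 3 (0.643 CPM) and CBM replicate 2 (0.632 CPM) that rests on the scaling. Relative to the total count of each library these were 0.608 and 0.636 CPM, and the regions overlapped. The log2 fold change of 2.45 ± 0.83 did not pass edgeR's test (adjusted p = 0.540), though it had an unadjusted p of 0.0224 in that fit; the exact permutation test gave a two-sided p of 0.1. It lay between 1.42, without EBM replicate 2, and 3.28, without CBM replicate 2. Cd14 passed the filter through all EBM libraries and 1 CBM library. Its partners in lipopolysaccharide sensing stayed low, with Tlr4 at 4 counts or fewer, Tlr2 at 0 to 1.95 CPM and Ly96 (MD-2) at 0.684 to 1.49 CPM. Cd14 is on the minus strand of chromosome 18 (36725074-36726736).

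Cd68, a lysosomal glycoprotein abundant in macrophages, differed the other way and with less scatter. CBM replicates 1, 2 and 3 had 6.20, 5.21 and 4.02 CPM, against 3.64, 3.67 and 3.47 CPM for EBM replicates 1, 2 and 3. Every EBM library was below every CBM library, whether scaled by TMM or by the total count (two-sided exact permutation p = 0.1, which 3 against 3 libraries cannot go below). Its log2 fold change was -0.51 ± 0.22 (adjusted p = 0.637, edgeR), and between -0.67 and -0.36 with 1 library left out. The spread of Cd68 over the libraries exceeded that of 65.0% of the genes tested, against 98.4% to 99.5% for Irf8, Ly6c2, Cd14, Fcgr3 and Lyz2. These shares take no account of counting error. Irf8, Cd14 and Ly6c2 had as few as 2, 2 and 12 counts in a library, against 54 for Cd68. Cd68 did not share the maximum of Lyz2 in the libraries numbered 2. Cd68 lies on the minus strand of chromosome 11 (69664213-69666153) and overlaps no annotated gene.

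Irf8, which directs progenitors towards monocytes and dendritic cells and away from neutrophils, was barely counted. CBM replicates 1, 2 and 3 had 2, 19 and 3 counts (0.114, 1.0 and 0.149 CPM), against 6, 27 and 29 counts (0.331, 1.5 and 1.86 CPM) for EBM replicates 1, 2 and 3. EBM replicate 3 and EBM replicate 2 were the highest libraries. EBM replicate 1 lay below CBM replicate 2. EBM over CBM, this gave 1.52 ± 0.92 on the log2 scale (adjusted p = 0.752, edgeR), which was 3.15 without CBM replicate 2 and 1.10 without CBM replicate 1 or EBM replicate 3. Irf8 is on the plus strand of chromosome 8 (120736358-120756694). EBM replicate 3, its highest library, was the lowest for Fcgr3 and Ccr2.

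Cx3cr1, the fractalkine receptor of patrolling monocytes and tissue macrophages, had 17 counts over the 6 libraries and at most 7 in one. CBM replicates had 0.114, 0.158 and 0 CPM and EBM replicates 0.221, 0.390 and 0.0643 CPM, at or near the limit of 3 counts, and no fold change is given. Its gene model on chromosome 9 (119901616-120069879, minus strand) overlaps 9 other annotated genes, among them Wdr48, Gorasp1 and Csrnp1 with between 2039 and 10976 counts in all, so even these counts are uncertain. The ligand Cx3cl1 had at most 3 counts.

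Set side by side, EBM and CBM did not differ in any member past the threshold. At an adjusted p under 0.05 edgeR's test called 0 of the 7 members tested, against 0% of 13352 genes. DESeq2 called 0 of the 5 members to which it gave an adjusted p, against 1.43% of all genes. Before adjustment 1 member (Cd14, higher in EBM) had a p under 0.05 in edgeR's test, where 7.91% of all genes did in either direction and 4.01% with EBM higher. Libraries of the regions did not overlap for Cd68, lower in EBM, against 7.65% of all genes, and for Cd14, higher in EBM, against 7.47%. Of the 7 members 6 had a log2 fold change above 0, with a median of 0.26, where the median over all tested genes was 0.0017. Summed, the 9 members came to 144, 51.5 and 62.4 CPM for CBM, against 138, 132 and 29.9 CPM for EBM (two-sided exact permutation p = 1), and Fcgr3 made up most of this sum in 4 of the libraries. Averaged over the tested members, the centred profile was nearest to those of Klhl24, Etfbkmt, Fnip1, Nrip1, Suco and Zfp874a, with root mean square differences between 0.35 and 0.42 on the log2 scale over the 6 libraries. Klhl24 had 58.8, 73.3 and 37.8 CPM for CBM, against 106, 111 and 64.8 CPM for EBM.

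The wider monocyte and macrophage program gave the same picture of a few well counted genes among many near 0. Of 62 further genes 27 had at most 10 counts in any library, as had 39957 of all 54532 genes. Of the 62 genes 22 were tested, against 13352 of all genes. Among these 22 genes 18 had a log2 fold change above 0 and 4 below, with a median of 0.36. Over all 13352 genes 6726 were above and 6626 below. None (0) of the 22 passed an adjusted p of 0.05 in edgeR's test. Before adjustment 2 had p under 0.05 and were higher in EBM, where 4.01% of all genes did, and 0 had such a p and were lower, where 3.90% did. Of the receptors and surface markers 5 of 22 were tested and 0 called. Spn (CD43), a sialoglycoprotein of most leukocytes, was at 548 ± 38.0 CPM for CBM against 504 ± 33.0 CPM for EBM (SD over n = 3). Treml4 was below 1 CPM in every library. It passed the filter only through the CBM libraries, which were all above the EBM libraries. Its log2 fold change (-0.89 ± 0.38, adjusted p = 0.639, edgeR) is therefore not read as a difference. Of the partners and ligands of the members 1 of 11, Ly96, was tested.

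Of 11 transcription factors 6 were tested. Spi1 averaged 84.7 ± 14.7 CPM for CBM against 96.9 ± 8.74 CPM for EBM (SD over n = 3; adjusted p = 0.837, edgeR), and Zeb2 averaged 85.8 ± 16.4 and 89.2 ± 10.1 CPM. On the log2 scale of the fold change, Id2, an inhibitor of basic helix-loop-helix factors, stood at -0.41 ± 0.23 (adjusted p = 0.725, edgeR). Nr4a1, which patrolling monocytes need and which is also an immediate early gene of many cells, had 12.1, 2.32 and 4.56 CPM for CBM, against 73.6, 56.6 and 10.2 CPM for EBM. EBM replicate 3 lay below CBM replicate 1, and the difference of 2.89 ± 0.85 (log2 fold change) had an adjusted p of 0.435 in edgeR's test.

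The products were led by Psap and Ctsb, a sphingolipid activator and a protease of lysosomes in general, at 86.2 and 52.1 CPM per kb. Psap averaged 222 ± 16.8 CPM for CBM against 252 ± 28.1 CPM for EBM, and Ctsb 312 ± 69.2 against 318 ± 45.2 CPM (SD over n = 3). Of 18 products 10 were tested. Il1b, the inflammatory cytokine interleukin 1 beta, had 33.0, 5.0 and 8.39 CPM for CBM, against 208, 170 and 63.8 CPM for EBM, with no overlap of the regions. Its log2 fold change was 3.26 ± 0.79 (adjusted p = 0.331 in edgeR's test and 0.0341 in DESeq2), and it was the 1 gene that DESeq2 called among the 17 of this list to which it gave an adjusted p, where 1.43% of all genes were called. Il1b was not highest in the libraries numbered 2, where Lyz2 and Ly6c2 were. Ms4a3 and F13a1, genes of granulocyte-monocyte progenitors and of monocytes, were below 6 CPM in every library, with log2 fold changes of 0.79 and 2.05 (adjusted p = 0.728 each, edgeR). F13a1 reached 5.51 CPM in EBM replicate 2, and without that library the log2 fold change was -0.03 for F13a1 and 0.43 for Ms4a3.

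**Figure D4:**
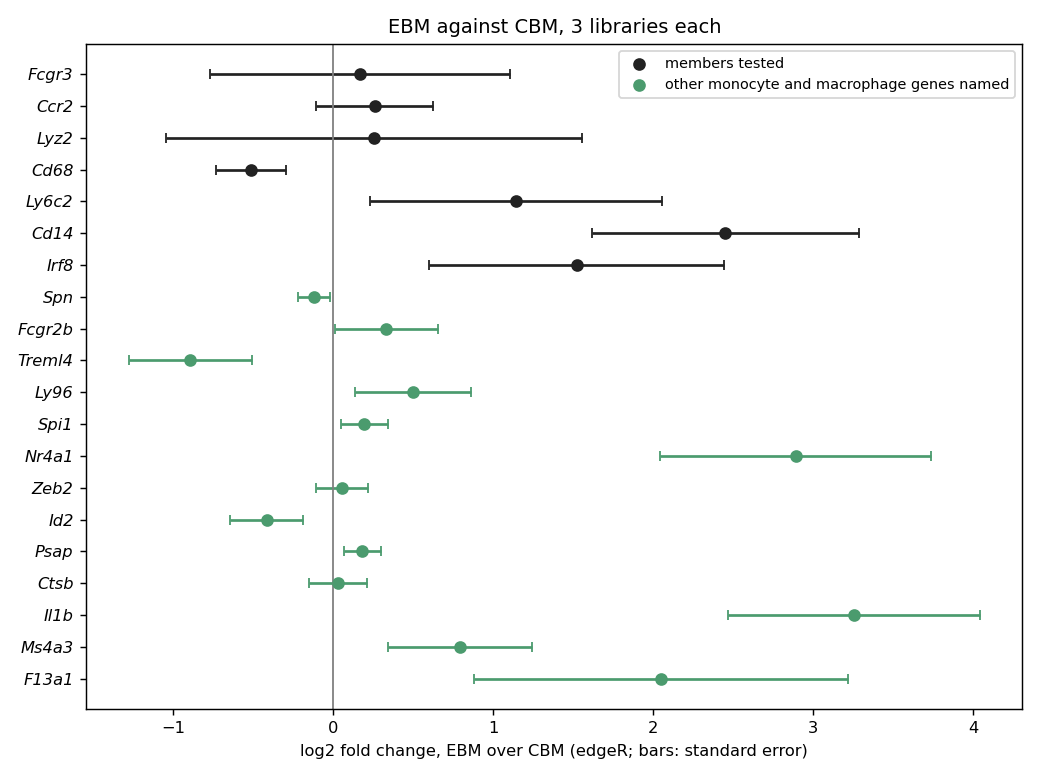
log2 fold change of EBM over CBM with its standard error (edgeR, 3 libraries each) for the 7 tested members (black) and the 13 other monocyte and macrophage genes named by rule that were tested (green). The errors of Fcgr3, Ccr2 and Lyz2 span 0, Cd68 lies at -0.51, and Il1b (3.26) and Nr4a1 (2.89) lie above every member.

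Markers of other lineages were read in the same libraries, but no list of mast cell or basophil genes was among them. Acp5, an acid phosphatase listed with the osteoclast genes, was at 258 to 565 CPM, with Mmp9 at 0.0496 to 8.48 CPM, while the defining Ocstamp, Dcstamp and Calcr were at 0 in all libraries and the summed osteoclast list averaged 395 ± 142 CPM for CBM against 375 ± 167 CPM for EBM (SD over n = 3). Of the dendritic cell list Bst2 was at 60.9 to 93.9 CPM, and Zbtb46, a factor of classical dendritic cells, at 8.02 to 23.8 CPM, while Siglech had at most 2 counts and Cd209a had 0. Cd74, the invariant chain of MHC class II, had 2.16, 2.42 and 1.09 CPM for CBM, against 5.41, 7.85 and 10.4 CPM for EBM, a difference of 2.06 on the log2 scale that did not pass the test (adjusted p = 0.189, edgeR). The summed levels of the B cell list were 9.38 to 14.8 CPM, led per length by Cd79b and Ighm, with Ms4a1 at 0, and those of the T and NK cell list 0.257 to 2.73 CPM, led by Nkg7 and Cd8a. Stromal and osteoblast genes, led by Bglap and Lepr, summed to 0.347 to 1.61 CPM and endothelial genes, led by Kdr and Pecam1 and with Emcn at 0, to 0.964 to 3.37 CPM. The erythroid list summed to 4880 to 8152 CPM. The progenitor and leukemia list, which holds Runx1 and Runx1t1, summed to 1711 to 2391 CPM. Hba-a1, an alpha globin, was between 639 and 3051 CPM, and Runx1 between 330 and 722 CPM. The share of the members' counts that each of these lineages gave was not tested.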

How the data were processed

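RNA-seq libraries of AE9a leukemia cells (3 CBM, 3 EBM) were made with a directional kit. The study's methods name rRNA-depleted RNA as the input, while the sample labels give the library type as mRNA, and which holds was not settled. The authors deposited raw counts per gene without normalization, with a gene length per gene as a further deposited column of other values. HISAT2 2.0.5 and mm10 are named in the submitters' processing notes. The counter, its strand setting and the annotation are not given in the sources used here. Of 54409 identifiers found in GENCODE M21, 98.3% have the same position there. Here genes were filtered with filterByExpr, scaled by TMM and tested with edgeR 4.0.16 (R 4.3.3) without a block, with Benjamini-Hochberg adjustment over all 13352 genes at 0.05. DESeq2 1.42.0 and limma 3.58.1 (voom) were alternatives. Fold changes are EBM over CBM, log2 CPM has a prior count of 2, and the methods were tested on simulated counts. The members and lists were chosen with earlier results of these data known. Besides the members and their near relatives, genes were named by a fixed rule: in each list of related genes, the 3 with the highest mean per kb and the 3 with the smallest p, in each marker list the 2 highest, and the 6 nearest profiles at a mean of at least 10 CPM. Genes outside it were chosen after their values were seen. Among them were Kit, Cd34, Flt3, Myb, Msi2, Runx1t1, Zbtb46, Mpo, Elane, Ctsg and Prtn3. The others were Vim, Nek6, Rasgrp4, Ltf, Ngp and Igha, the genes named for lack of counts, and the partners and ligands. Since nothing ties libraries to mice, p-values measure the spread between these libraries, which may be technical in part. No pair of libraries of a region was alike within sampling noise (chi-square divided by its degrees of freedom, 13.1 or more).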

Additional observations from a re-analysis of the deposited data

How the results depend on the processing

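The count of genes called, 0 in edgeR's test (1056 at an unadjusted p under 0.05), was 40 with every gene of at least 1 count tested and 176 with DESeq2. It stayed at 0 with the size factors of DESeq2, the library size alone, limma-voom, the replicate block and each library left out. For the members the count was 0 in every alternative, and for the 62 further genes 0 except under DESeq2, where it was 1 (Il1b). With the library size alone, the log2 fold change was -0.043 for Ctsb and -0.011 for Zeb2, against 0.03 and 0.06. Leaving out both libraries numbered 2, an alternative added after seeing the data, gave -0.43 for Fcgr3 and -0.19 for Ccr2. With each library left out in turn, log2 fold changes ran from -1.25 to 3.16 for Lyz2, from -0.41 to 1.20 for Fcgr3, from -0.00043 to 0.54 for Ccr2, from -0.10 to 0.23 for Ctsb, from -0.089 to 0.18 for Zeb2 and from -0.031 to 3.18 for F13a1, and the log2 ratio of the summed members from -0.09 to 0.81. Cd14, Cd68, Ly6c2 and Irf8 kept their direction in all alternatives that gave a value. Whether same-numbered libraries form pairs was checked across genes by how their distances from the region means correlate. The r was 0.68, -0.20 and 0.20 for numbers 1, 2 and 3. This cannot settle pairing, since the distances of 3 libraries from their region mean depend on each other. The replicate block called 0 genes (Cd14 2.38 with adjusted p = 0.385 in edgeR, Cd68 -0.50 with 0.571). Irf8 was not tested without both libraries numbered 2, since it then failed the filter. At this depth Lyz1 and Cx3cr1 could not be compared.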
